A study of Camellia sinensis var. assamica with 4 samples.

Results

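In young leaf of tea, the 4 genes DCL2 (identifier CSA001781), DCL4 (CSA011120), AGO4 (CSA016856) and DRM2 (CSA001531) cover the production of small interfering RNA (siRNA), its loading and the de novo methylation that it directs. They are 4 of the 27554 gene identifiers with an expression value. They were chosen by identifier, because the study had paired each of them with its Arabidopsis homolog, and not by their level. The samples were young leaf of Camellia sinensis var. assamica, with no treatment, mutant or second tissue, and the age of the plants and the cultivar are not given in the sources used here. RNA-seq was done in 2 replicates, and the labels speak of 3 libraries pooled for sequencing. Bisulphite sequencing of the same tissue was also done in 2 replicates and was not analysed here. Nothing says whether the RNA-seq replicates came from separate plants, so the SD measures only the spread between these libraries. With 1 tissue there was no comparison between conditions, and the comparisons below are between genes within the leaf.

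RNA-directed DNA methylation (RdDM) is the plant pathway by which small RNAs guide DNA methylation to matching sequence, mostly at transposable elements. In Arabidopsis, where its steps were worked out, RNA polymerase IV and RDR2 make double-stranded RNA, the endonuclease DCL3 cuts it into siRNAs, and the Argonaute protein AGO4 takes up the siRNA and pairs it with a transcript of RNA polymerase V. The methyltransferase DRM2 then methylates the cytosines there, in all sequence contexts. DCL2 and DCL4 are Dicers of the same family that are best known for antiviral defence and for post-transcriptional silencing, together with RDR6, and that can partly stand in for DCL3 in making siRNAs for methylation.

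Expression was given as FPKM, in which the fragments counted for a gene are scaled by the gene's length and the library's mapped total, so that levels of different genes can be set side by side. The 4 genes differed widely in level. AGO4 was the highest of them, DRM2 followed, and the Dicers DCL2 and DCL4 were the lowest, in this order in both replicates. DCL2 and DCL4 do not stand for siRNA production as a whole. Of the other genes of that step described below, DCL3, RDR2 and RDR6 were above both, and DCL1 and HEN1 lay between them. No replicate of any of the 4 genes overlapped with a replicate of another. Neither the leaf identity nor any other cell type could be checked against marker genes, since the identifiers are paired with names only for the 37 genes of the methylation pathway list.

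siRNA production was represented by DCL2 and DCL4. DCL2 reached FPKM values of 3.20 in replicate 1 and 3.77 in replicate 2, a mean of 3.49 ± 0.399 (SD, n = 2). DCL4, which in Arabidopsis also makes trans-acting siRNAs, had 1.03 and 1.12, a mean of 1.08 ± 0.0576 (SD, n = 2). DCL2 was over DCL4 by 3.10 times in replicate 1 and by 3.38 times in replicate 2, and even its lower value was 2.87 times the higher value of DCL4. The FPKM of both genes summed to 4.24 in replicate 1 and 4.88 in replicate 2.

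AGO4, the loading step, reached FPKM values of 56.2 in replicate 1 and 58.5 in replicate 2, a mean of 57.4 ± 1.60 (SD, n = 2). DRM2, the methylation step, had 12.8 and 13.3, a mean of 13.1 ± 0.346 (SD, n = 2). The SD between the libraries was 2.80% of the mean for AGO4 and 2.64% for DRM2, against 5.35% for DCL4 and 11.4% for DCL2. With each library rescaled to the same sum (TPM) it was larger, at 6.82% for AGO4, 6.67% for DRM2, 9.37% for DCL4 and 15.4% for DCL2. On average 1 gene held 21.3% of that sum. Scaling by the median ratio of the genes left it near the values in FPKM, at 2.64% for AGO4, 2.49% for DRM2, 5.20% for DCL4 and 11.3% for DCL2.

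**Figure D1:**
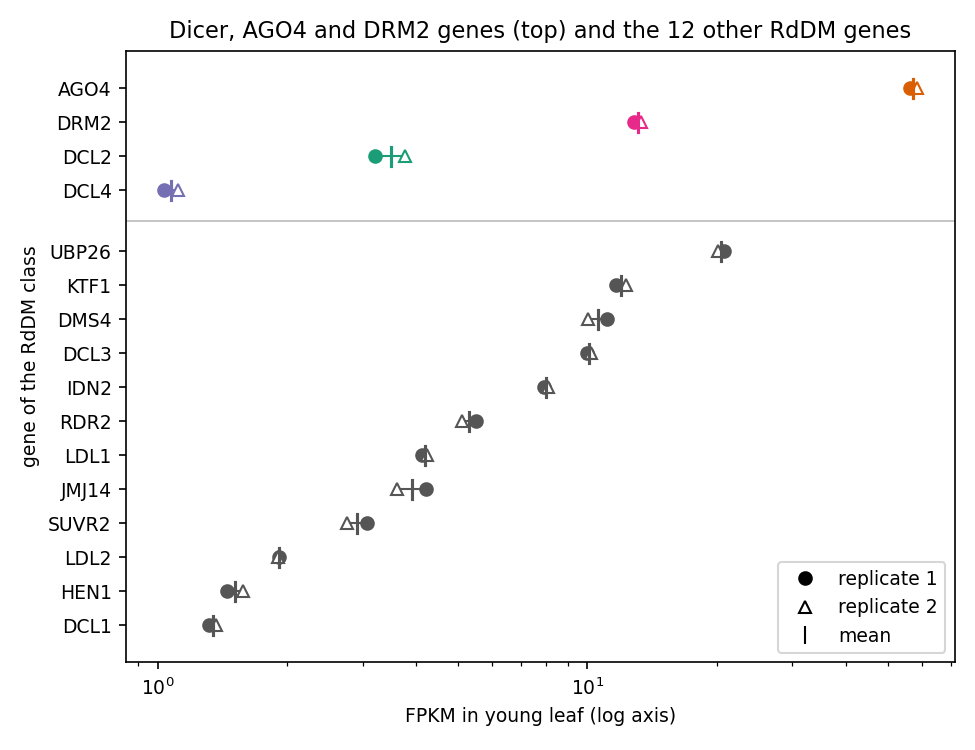
FPKM of the 16 genes of the RdDM class in young leaf on a log axis, with the 4 genes described here in the upper block and the 12 other genes of the class below; filled circles are replicate 1, open triangles replicate 2 and vertical ticks the mean. AGO4 at 57.4 lies to the right of every other gene, DRM2 at 13.1 lies between UBP26 and KTF1, and DCL4 at 1.08 is the lowest of the 16.

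Differences between genes of different steps were taken within each library, where they do not depend on how that library was scaled. The ratio of AGO4 to DRM2 was 4.38 in replicate 1 and 4.39 in replicate 2. The ratio of AGO4 to DCL2 was 17.5 in replicate 1 and 15.5 in replicate 2, and that of AGO4 to DCL4 was 54.3 and 52.4. The loading gene was therefore several times over the methyltransferase gene and more than 10 times over DCL2 and DCL4, in each library. Against DCL3, the Dicer of the main Arabidopsis pathway, AGO4 was 5.64 times as high in replicate 1 and 5.75 times in replicate 2. DRM2 was 4.01 and 3.54 times the level of DCL2 and 12.4 and 11.9 times that of DCL4. The ratios that involve DCL2 moved most between the libraries, as DCL2 itself did.

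On the log2(FPKM + 1) scale, with a pseudocount of 1 that understates differences of low genes, the mean differences were 2.05 ± 0.00420 for AGO4 over DRM2, 3.70 ± 0.0888 for AGO4 over DCL2 and 4.81 ± 0.000371 for AGO4 over DCL4 (SD, n = 2). They were 1.65 ± 0.0930 for DRM2 over DCL2, 2.76 ± 0.00458 for DRM2 over DCL4 and 1.11 ± 0.0885 for DCL2 over DCL4 (SD, n = 2). As a measure of how far a gene moves between these libraries, the size of the replicate difference on this scale was under 0.78 for 95% of all 27554 genes. Each of the 6 differences between genes was larger than that. The limit covers the movement of 1 gene between libraries, and not errors in comparing 2 genes that both libraries share. Passing it therefore does not establish the order of the genes. For the expression group that holds DCL4, the second of the 5 described below, the same limit was 1.12. DCL2 over DCL4, at 1.11, did not exceed this higher limit, while every other pair did. This holds at a pseudocount of 1. With 0.1 the difference of DCL2 over DCL4 was 1.61, and the limit was not computed there. The SD of AGO4 over DCL4 is small partly because the pseudocount evens out the values of DCL4, and without it the ratios of 54.3 and 52.4 lay further apart. An exact two-sided permutation test of 2 against 2 values gave p = 0.333 for each of the 6 pairs, also after Benjamini-Hochberg adjustment over them, and this is the smallest p that the design allows, so it cannot call any difference. Paired by library, the exact two-sided permutation test gave p = 0.5 for each pair, again the smallest it can give.

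**Figure D2:**
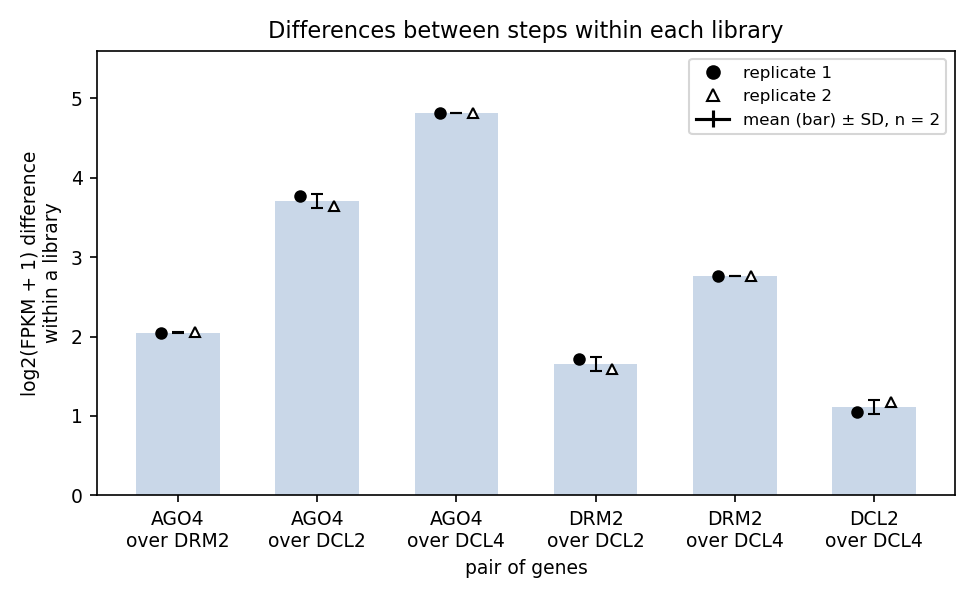
Difference in log2(FPKM + 1) between 2 genes within the same library, for the 6 pairs of the 4 genes; bars are the mean of the libraries, error bars the SD (n = 2), filled circles replicate 1 and open triangles replicate 2. AGO4 over DCL4 is the widest difference at 4.81 and DCL2 over DCL4 the narrowest at 1.11, and the replicates of each pair lie close together.

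Among all 27554 genes, the 4 genes lay in 4 different parts of the range. AGO4 was at percentile 94.3 by its mean, meaning that 94.3% of the listed genes had a lower value, with rank 1613 from the top in replicate 1 and 1512 in replicate 2. DRM2 was at percentile 75.4, with rank 6897 in replicate 1 and 6673 in replicate 2. DCL2 was at percentile 44.4, with rank 15686 and 14848, and DCL4 at percentile 25.8, with rank 20439 and 20107. The median gene was at FPKM 4.47 in replicate 1 and 4.49 in replicate 2, so that AGO4 and DRM2 were above it and both Dicers below it in each library. The table lists no gene at 0 in both replicates, and the percentiles are relative to listed genes only.

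**Figure D3:**
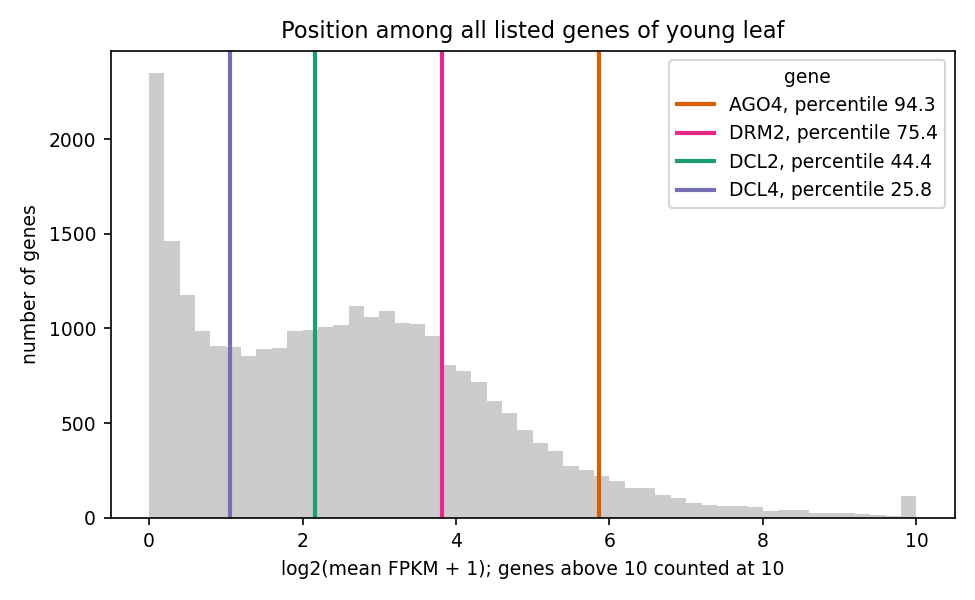
Number of genes by log2(mean FPKM + 1) over the 27554 listed genes, with a vertical line at each of the 4 genes. DCL4 (percentile 25.8) and DCL2 (44.4) lie in the lower part, DRM2 (75.4) in the upper part and AGO4 (94.3) in the upper tail.

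The study's 5 expression groups, with genes under an FPKM of 0.5 in the first and the rest divided by rank into 4 equal groups, placed 1 of the 4 genes in each of the upper 4. DCL4 was in the second group, DCL2 in the third, DRM2 in the fourth and AGO4 in the fifth. All 4 fell into the same group in replicate 1 as in replicate 2, with the groups formed separately. The share of all genes that kept their group is not given here, so this does not set the 4 genes apart. No value of the 4 genes was repeated exactly by another gene of the same replicate. Such a value was held by 7070 listed genes: 33.8% of the second group, 20.7% of the third, 17.4% of the fourth and 11.8% of the fifth. Its absence from 4 genes therefore does not set them apart. Of the genes compared below, KTF1 and HDA6 had such a value.

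Replicate agreement was judged against genes of the same expression group. On the log2(FPKM + 1) scale, replicate 2 minus replicate 1 was 0.06 for AGO4, where the median size of the difference in its group was 0.12. It was 0.05 for DRM2, where the group median was also 0.12. DCL4 differed by 0.06, where the group median was 0.21. In FPKM these 3 genes moved less than most genes of their level, at percentile 25.7, 22.1 and 15.2 of the sizes in their group for AGO4, DRM2 and DCL4. DCL2 differed by 0.18, close to its group median of 0.16 and at percentile 55.6 of the group. In TPM the differences were larger, with 0.14 for AGO4, 0.13 for DRM2, 0.10 for DCL4 and 0.24 for DCL2. AGO4 and DRM2 were then close to the middle of their groups, at percentile 48.3 and 43.4, while DCL4 was at 26.0 and DCL2 at 64.7. A difference of more than 1 was found for 0 of the 4 genes, against 3.32% of all genes.

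All 4 genes were higher in replicate 2, by 4.03% for AGO4, 3.81% for DRM2, 7.87% for DCL4 and 17.6% for DCL2. Over all genes, 50.6% were higher in replicate 2, and of the 12 other genes of the RdDM class 6 were. Of the 33 other genes of the whole pathway list, 11 were higher in replicate 2 and 22 in replicate 1. Scaling the replicates by the median ratio of all genes left all 4 genes higher in replicate 2, from a fold of 1.04 for DRM2 to a fold of 1.17 for DCL2. In TPM all 4 were again higher in replicate 2, as were 61.2% of all genes. With 2 libraries in which each gene has 1 difference, and differences of a size common in their groups, the shared direction is a description of these libraries.

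**Figure D4:**
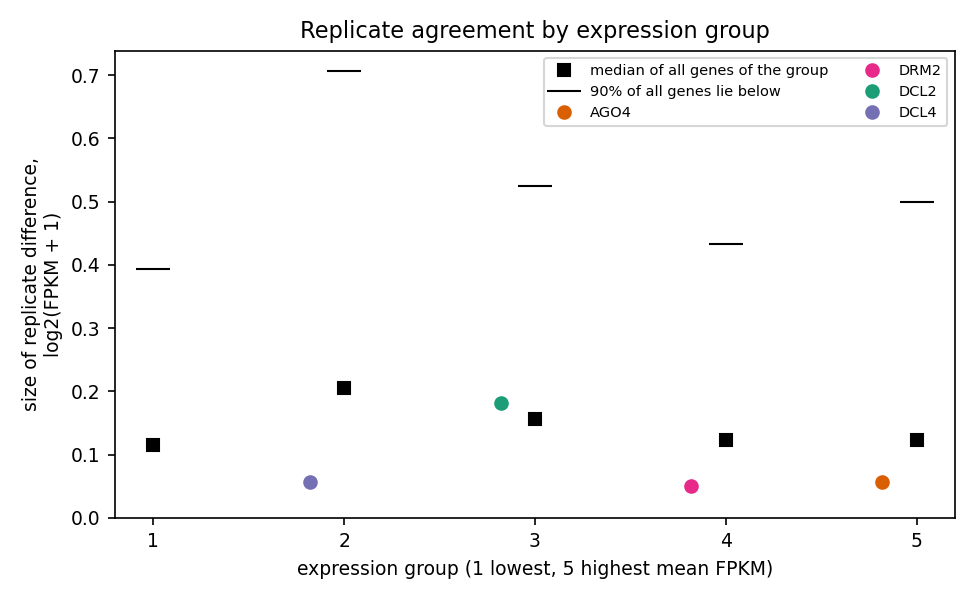
Size of the replicate difference in log2(FPKM + 1) by expression group, from 1 (lowest) to 5 (highest mean FPKM); coloured circles are the 4 genes, black squares the median of all genes of a group and black bars the value below which 90% of them lie. In FPKM, AGO4, DRM2 and DCL4 lie below the median of their group at 0.05 to 0.06, and DCL2 lies slightly above it at 0.18.

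Next, the 4 genes were set beside other genes of the pathway list. For DCL2 and DCL4 these were other genes of siRNA production. No other listed gene was assigned to loading or to de novo methylation. Of the 4 Dicers on the list, DCL2 and DCL4 together held 28.5% ± 1.71 of the summed FPKM (SD, n = 2), with 27.3% in replicate 1 and 29.7% in replicate 2. DCL2 held 21.8% ± 1.62 and DCL4 held 6.73% ± 0.0900 (SD, n = 2). DCL3 (CSA030036), the Dicer of the main Arabidopsis pathway, had an FPKM of 9.96 and 10.2 and held 63.1% ± 1.62. DCL2 was at 0.322 and 0.371 of the level of DCL3 in replicates 1 and 2, and DCL4 at 0.104 and 0.110. DCL1 (CSA034540), which processes microRNA precursors in Arabidopsis, had 1.32 and 1.37, so that DCL2 was 2.44 and 2.75 times its level while DCL4 stayed under it, at 0.787 and 0.814. The order of the Dicers was therefore DCL3, DCL2, DCL1 and DCL4 in both libraries, with no overlap between neighbours.

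The RNA-dependent RNA polymerases that supply the Dicers were higher than DCL2 and DCL4. RDR2 (CSA003297), the partner of RNA polymerase IV, was at FPKM 5.50 in replicate 1 and 5.11 in replicate 2. DCL2 was at 0.583 and 0.738 of RDR2, and DCL4 at 0.188 and 0.219. RDR6 (CSA020358), the partner of DCL2 and DCL4 in post-transcriptional silencing, had 10.5 and 12.4. DCL2 was at 0.306 of RDR6 in replicate 1 and 0.305 in replicate 2, and DCL4 at 0.0989 and 0.0903. HEN1 (CSA016903), which methylates the ends of small RNAs, had 1.45 and 1.58, between DCL2 and DCL4 in both libraries.

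AGO4 was the only gene of the list assigned to loading. It was above all 12 other genes of the RdDM class and above all 33 other genes of the pathway list in both replicates. It held 36.5% ± 0.729 of the summed FPKM of the 16 genes of the RdDM class (SD, n = 2). KTF1 (CSA021730), a protein that binds AGO4 and the transcripts of RNA polymerase V in Arabidopsis, had an FPKM of 11.6 and 12.3, and AGO4 was 4.83 and 4.75 times its level. IDN2 (CSA020735), which binds double-stranded RNA at the same stage, had 7.94 and 8.10, and AGO4 was 7.08 and 7.22 times its level. The next gene below AGO4 on the whole list was NRPE5 (CSA008802), a subunit of RNA polymerase V, with 23.8 and 22.7. AGO4 was 2.36 and 2.58 times as high. AGO4 was also 5.64 and 5.75 times the level of DCL3.

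DRM2 was compared with the other DNA methyltransferases on the list. It held 64.3% ± 3.94 of the summed FPKM of the 4 methyltransferase genes (SD, n = 2), with 61.5% in replicate 1 and 67.1% in replicate 2. CMT3 (CSA030966), which maintains CHG methylation, had an FPKM of 4.15 and 3.48, and DRM2 was 3.10 and 3.83 times as high. DRM2 was 4.63 and 6.09 times the level of CMT2 (CSA032127), the chromomethylase of CHH sites, which had 2.77 and 2.19. MET1 (CSA018787), which maintains CG methylation, had 1.11 and 0.866, and DRM2 was 11.6 and 15.4 times as high. All 3 ratios were larger in replicate 2, where CMT3, CMT2 and MET1 were lower and DRM2 was slightly higher. DRM2 was 1.29 and 1.31 times the level of DCL3, so that the methyltransferase lay near the main Dicer and far from DCL2 and DCL4.

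The genes nearest in level were then taken from the whole pathway list, with likeness measured as the distance in mean FPKM. DRM2 lay between SUVH2/9 (CSA033444), a binder of methylated DNA that helps to recruit RNA polymerase V in Arabidopsis, which had 14.7 and 15.4 and did not overlap with it, and the histone deacetylase HDA6 (CSA007759), which had 14.0 and 11.9 and did. DCL2 lay between CMT3 and NRPD2/NRPE2 (CSA013061), a subunit shared by RNA polymerases IV and V, with 3.61 and 3.22, and overlapped with both. Its replicates also overlapped with those of DMS3, which acts in RNA polymerase V recruitment, and of the histone demethylase JMJ14. DCL4 lay between DCL1, which was above it in both libraries, and MET1, whose replicates overlapped with those of DCL4. In both libraries AGO4 was at the top and DRM2 was above DCL2 and DCL4, without overlap of replicates. The order of DCL2 against CMT3 and NRPD2/NRPE2, of DCL4 against MET1 and of DRM2 against HDA6 reversed between the libraries.

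Over the RdDM class, the 4 genes spanned the whole range of level. AGO4 ranked first of 16 and DCL4 last of 16 in both replicates, DRM2 ranked 3 in both, and DCL2 ranked 11 in replicate 1 and 10 in replicate 2. Together they held 46.9% of the summed FPKM of the class in replicate 1 and 48.5% in replicate 2, most of it AGO4. Only uniquely mapped reads were counted, so the level of a gene with a near-identical copy elsewhere in the genome could be understated, and this was not tested for the 4 genes.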

How the data were processed

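RNA-seq of young leaf was used. The authors aligned the reads to the tea genome with TopHat2 2.1.0, discarded reads without a unique position, ran Cufflinks and deposited FPKM per gene and replicate, with the mean. The Cufflinks version and the annotation are not given in the sources used here. The deposited mean equals the mean of both columns within a relative difference of 4.99e-06. FPKM is not a count, so count models were left out. The depth is unknown and counting error has no interval here. The FPKM summed to 1070174 in replicate 1 and 1010900 in replicate 2, and across genes, which are not independent, Pearson's r of the replicates was 0.964 on the log2(FPKM + 1) scale.

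The 4 genes and the list of 37 genes, of which 16 form the RdDM class, were taken from the names the study pairs with identifiers, with earlier results of these data known. Named are the 4 genes, the other RdDM genes, RDR6, MET1, CMT2, CMT3 and the list gene next above and below each of the 4; others are named where replicates overlapped with them. No sequence table was used here and 0 identifiers were found in the RefSeq gene table, so no sequence, length or coordinate is given. The alternatives were pseudocounts of 0.1 and none, TPM, median-ratio scaling, a geometric mean of FPKM + 0.01, limits of 0.5 and 1 on ranked genes, leaving out repeated values and leaving out each replicate. The functions were tested on simulated data. Python 3.11.15, numpy 2.4.6, pandas 2.3.3, scipy 1.17.1, statsmodels 0.14.6 and matplotlib 3.10.9 were used.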

Additional observations from a re-analysis of the deposited data

How the results depend on the processing

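The order AGO4, DRM2, DCL2 and DCL4 held under all alternatives run. Rescaling to TPM, which lowers values here, gave a mean of 55.2 for AGO4 and 12.6 for DRM2, and log2 differences of 4.79 for AGO4 over DCL4 and 2.74 for DRM2 over DCL4. TPM also raised the replicate differences, to 0.14 for AGO4, 0.13 for DRM2, 0.10 for DCL4 and 0.24 for DCL2. A pseudocount of 0.1 gave 2.12 for AGO4 over DRM2, 4.01 for AGO4 over DCL2, 5.61 for AGO4 over DCL4, 1.88 for DRM2 over DCL2, 3.49 for DRM2 over DCL4 and 1.61 for DCL2 over DCL4. No pseudocount gave 2.13, 4.04, 5.74, 1.91, 3.61 and 1.69 for the same pairs. A smaller pseudocount compresses low genes less by construction. Ranking only genes from a mean FPKM of 0.5 upwards gave percentiles of 32.4 for DCL2, 9.80 for DCL4, 93.1 for AGO4 and 70.1 for DRM2. From a mean of 1 they were 25.9, 1.16, 92.4 and 67.2, and without repeated values 36.9, 19.2, 93.2 and 71.1. Every percentile was lower in these sets. The first 2 sets leave out low genes by construction, and repeated values were held by 47.6% of the genes in the lowest expression group and 11.8% in the highest. AGO4 held 18.5% of the summed FPKM of all 37 list genes.

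Leaving out 1 replicate gave percentiles of 25.8 to 27.0 for DCL4. Each mean, difference between genes and share moved by less than its SD, which is bound to happen with 2 replicates. The shares of the Dicer and methyltransferase sums, chosen after the data were examined, were unchanged under TPM by construction. No paired analysis was possible because the RNA-seq replicates form a single group, with no other group of values to pair them with. Pairing of genes by library is given with the ratios. Counting error at the unknown depth weighs most on DCL4, the lowest of the 4 genes.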

Other observations

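The remaining genes of the RdDM class act on chromatin or transcription, and DRM2 and AGO4 were set beside them. UBP26 (CSA033342), a ubiquitin protease of histone H2B in Arabidopsis, was at FPKM 20.7 in replicate 1 and 20.2 in replicate 2. It was the only gene of the class other than AGO4 that was over DRM2, which was at 0.619 and 0.661 of its level. AGO4 was 2.71 and 2.90 times as high as UBP26. DCL2, with 3.20 and 3.77, was over the SET domain gene SUVR2 (CSA021101), which had 3.07 and 2.76, and over the histone demethylase gene LDL2 (CSA000647), which had 1.92 and 1.91. DCL2 was under LDL1 (CSA034653), with 4.13 and 4.24, and overlapped with the demethylase gene JMJ14 (CSA018589), with 4.21 and 3.60. DMS4 (CSA023931), a transcription factor of the IWR1 type, with 11.1 and 10.1, was under DRM2 in both replicates.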
